A study of Mus musculus with 16 samples.

Results

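The genes described here take fatty acids into liver cells or carry them inside. They were chosen by symbol from the table of read counts: the scavenger receptor Cd36, the fatty acid binding proteins Fabp1, Fabp2, Fabp4, Fabp5 and Fabp7, the fatty acid transport proteins Slc27a2, Slc27a4 and Slc27a5, and lipoprotein lipase, Lpl. They make up 10 of its 53801 gene rows, and all 10 passed the filter on low counts. Total RNA was sequenced from 16 mouse livers in 4 groups of 4: Degs1 knockout on a high-fat diet, control on a high-fat diet, Degs1 knockout on normal chow and control on normal chow. Degs1 encodes the desaturase that turns dihydroceramide into ceramide, and its deletion was specific to the liver. The sources used here do not give the means of deletion, the alleles of the controls, or the strain, sex, age, diet composition and feeding time of the mice. Each liver carries its own animal number in the labels. Except in the fit with no filter on low counts, p-values measure the spread between these livers.

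Liver takes up fatty acids set free from fat tissue and from circulating triglyceride. Cd36 binds long-chain fatty acids at the cell surface, and the Slc27 proteins couple entry of a fatty acid to its activation with coenzyme A. The Fabp proteins are small cytosolic carriers, each named for a tissue where it abounds, while lipoprotein lipase works on the capillary wall and splits the triglyceride of lipoproteins. Several of these genes, Cd36, Fabp1 and Fabp4 among them, are known targets of PPAR nuclear receptors.

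The DNA before the RefSeq start sites of Cd36 and Fabp1 is shown first, since Cd36 was the member that rose on the high-fat diet and Fabp1 the member with the highest level. The Cd36 stretch is chr5:17835897-17836146 on the minus strand, and the Fabp1 stretch is chr6:71199629-71199826 on the plus strand, both in build GRCm38.p6. Capitals mark TGACCT, the nuclear receptor half-site AGGTCA read on the opposite strand.
Cd36: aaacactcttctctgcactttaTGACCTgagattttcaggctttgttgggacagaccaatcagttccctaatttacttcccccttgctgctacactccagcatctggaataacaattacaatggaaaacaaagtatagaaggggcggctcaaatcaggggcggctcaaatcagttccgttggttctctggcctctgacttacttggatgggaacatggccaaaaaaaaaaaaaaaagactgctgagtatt
Fabp1: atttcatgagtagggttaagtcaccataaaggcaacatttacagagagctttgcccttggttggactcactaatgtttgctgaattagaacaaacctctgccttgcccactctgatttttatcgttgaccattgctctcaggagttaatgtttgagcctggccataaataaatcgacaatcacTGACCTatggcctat
In the stretches shown, the half-site lies at bases -228 to -223 before the Cd36 start and at -67 to -62 before the Fabp1 start. The 250 bases before the Fabp1 start hold another half-site at -9 to -4, and TATAAA at -30 to -25. These lie in the last 52 bases, which are exon in GENCODE and are not shown. The Fabp1 stretch ends where the first exon of GENCODE begins, and 0 bases of the Cd36 stretch lie in a GENCODE exon. None of the 6 GENCODE transcripts of Cd36 holds the bases just after that RefSeq start. RefSeq start windows of 250 bases matched 6 of the 10 members (Cd36, Fabp1, Fabp2, Fabp7, Slc27a2 and Slc27a4), and 4 of the 6 hold AGGTCA on either strand, against 14% of 32851 windows of the same length. A direct repeat of AGGTCA with any 1 base between the copies was found in 0 of the 6 windows and in 0.0335% of all windows. The letters TATAAA are in 1 of the 6, that of Fabp1, and in 12.4% of all windows. CACGTG (an E-box) and TCACNCCAC (a sterol response element) are in 0 of the 6, against 6.02% and 1.05% of all windows.

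Fabp5 and Fabp4 encode close relatives and lie on the same chromosome, Fabp5 at chr3:10012548-10016607 on the plus strand and Fabp4 at chr3:10204088-10208576 on the minus strand (GRCm38). Fabp5 fell on the high-fat diet and Fabp4 did not, so the start of both coding sequences, in exon 1 of the GENCODE transcripts, is shown to let the genes be told apart. Capitals mark bases that differ between them or have no partner in the alignment.
Fabp5: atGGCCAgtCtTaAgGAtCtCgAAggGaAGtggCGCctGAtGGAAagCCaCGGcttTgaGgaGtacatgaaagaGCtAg
Fabp4: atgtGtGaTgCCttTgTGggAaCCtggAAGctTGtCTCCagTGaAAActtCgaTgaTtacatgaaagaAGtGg
Of 73 aligned pairs of bases here, 42 are identical. Over the whole coding sequences 61.1% of aligned pairs are identical and the longest identical run is 12 bases, so few reads could be shared between these genes. In stretches of 50 bases, 5.48% of those in Fabp5 exons recur in other genes, most of them in Gm6166, a processed pseudogene, which had 0 to 1.01 CPM in these livers. For Slc27a2 the share is 9.8%, all in Gm26697, a noncoding gene on the opposite strand, with 0.0514 to 0.609 CPM. For Lpl it is 1.4%, and for the other 7 members it is 0.

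Library totals ran from 11938596 to 23250885 counts, so that 3 counts, the floor used here, stood at 0.129 to 0.251 CPM of the unscaled total. Levels are given as CPM, counts brought to a common library size, here after scaling of the totals by TMM. Degs1 was lower in every knockout than in every control, at 26.1 to 41.6 CPM in high-fat knockouts against 60.2 to 101 CPM in high-fat controls, and at 35.9 to 39.3 CPM in chow knockouts against 80.4 to 87.9 CPM in chow controls. High-fat control 3 and chow knockout 1 stood apart from the rest on the second principal component, at -64.7 and 51.1. Counts on transcripts annotated as sense-intronic or as still unproven, called intronic counts below, also differed between groups. They made up 0.162% to 0.191% of the total in high-fat knockouts, 0.0218% to 0.164% in high-fat controls, 0.0463% to 0.0878% in chow knockouts and 0.0263% to 0.0411% in chow controls. Malat1, a nuclear RNA, moved with it, from 179.6 CPM in high-fat control 3 up to 4028 CPM in high-fat control 1. The intronic share did not overlap between diets in knockouts or between genotypes on chow. Fits with this share in the model therefore cannot fully tell it apart from those group differences. Animal numbers ran from 82 to 92 in high-fat knockouts, 61 to 76 in high-fat controls, 179 to 187 in chow knockouts and 194 to 220 in chow controls. The numbers separate the diets and, within each diet, the genotypes, so neither diet nor genotype can be told apart from any difference in handling that went with the numbers. In whole tissue, fewer cells of a type and less RNA per cell cannot be told apart either.

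On the high-fat diet Cd36 rose and Fabp5 fell in both genotypes, and none of the other 8 members changed past the threshold in the edgeR fit of the 4 groups over all 16 livers. Cd36 was 3.73-fold higher on the high-fat diet than on chow in knockouts and 3.34-fold higher in controls, and Fabp5 was 16.8-fold lower in knockouts and 13-fold lower in controls. Loss of Degs1 moved no member past the threshold on either diet, although Lpl was about as much higher in knockouts on the high-fat diet (1.90-fold) as on chow (2.01-fold). The diet comparisons share no liver with each other, but each shares its livers with the genotype comparisons.

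In counts, 2 of the 10 members passed an adjusted p of 0.05 for diet in knockouts and 2 for diet in controls (edgeR quasi-likelihood F test, Benjamini-Hochberg over 14351 genes). Among all genes tested, 10.6% passed in knockouts and 1.83% in controls. For knockout against control, 0 members passed on the high-fat diet, where 0.111% of all genes did, and 0 on chow, where 0.0139% did. At an unadjusted p under 0.05 there were 2 members on the high-fat diet (Lpl and Slc27a5), where 21.4% of all genes had such a p, and 1 on chow (Lpl), where 9.52% had. Both counts of members are near the share over all genes. DESeq2 called 1 member on each diet, Lpl both times. Of all 14351 genes it called 265 higher and 368 lower on the high-fat diet and 34 and 16 on chow. For limma-voom it was 0 members on each diet, beside 21 and 10 genes on the high-fat diet and 0 and 3 on chow. With quality weights limma-voom called 1 member on the high-fat diet (Lpl), beside 136 and 151 genes, and 0 on chow, beside 1 and 3. No member's response to diet differed between genotypes, with 0 called in edgeR, DESeq2 and both limma-voom fits and 0% of all genes called in edgeR. The interaction had 1 member at an unadjusted p under 0.05, Slc27a2, near the 11.3% of all genes that had one. The median log2 fold change of the members was -0.08 for diet in knockouts, 0.10 for diet in controls, -0.19 for knockout on the high-fat diet and 0.04 for knockout on chow, beside 0.02, 0.01, 0.03 and -0.01 over all genes tested.

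**Figure D1:**
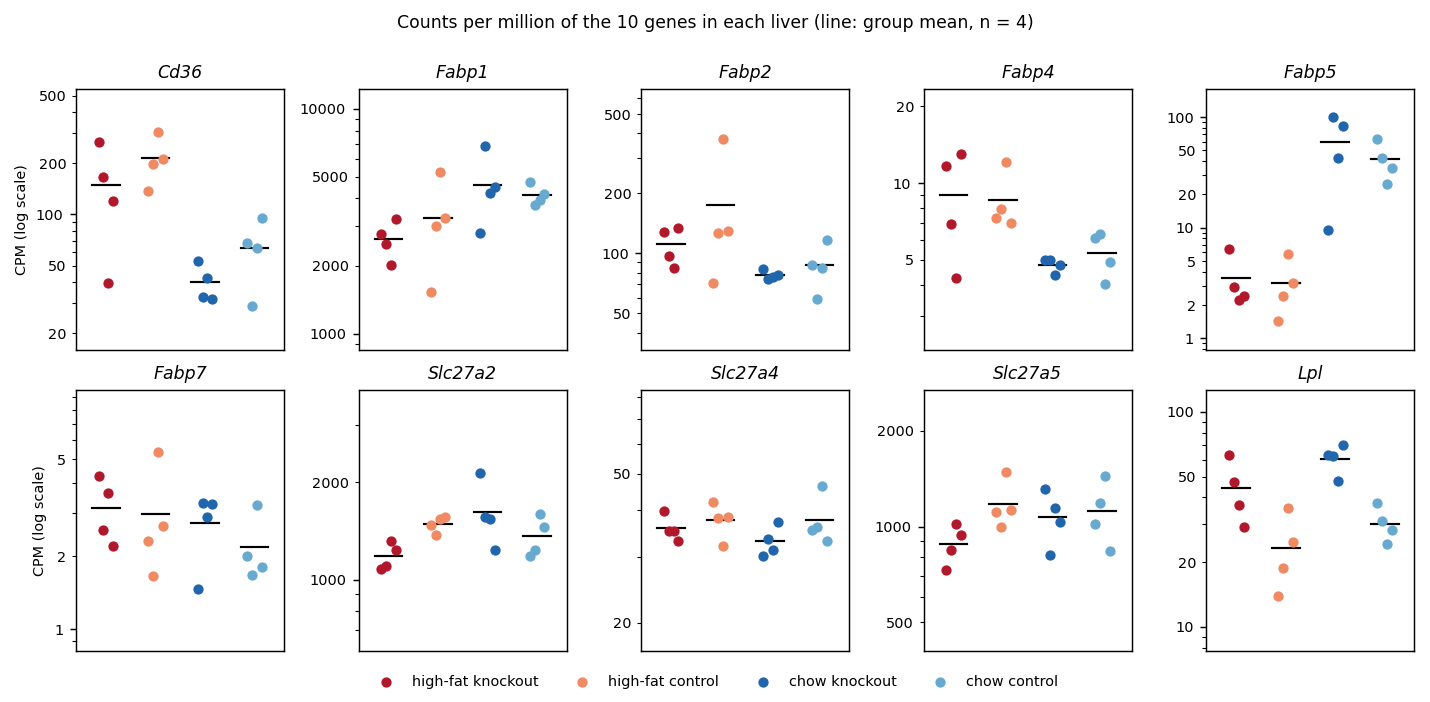
CPM of the 10 members on a log scale in each liver, by group, with a line at the group mean (n = 4 each). Cd36 stands higher and Fabp5 lower in both high-fat groups, while the 4 groups of Slc27a4 lie within 30.2 to 46.4 CPM.

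**Figure D2:**
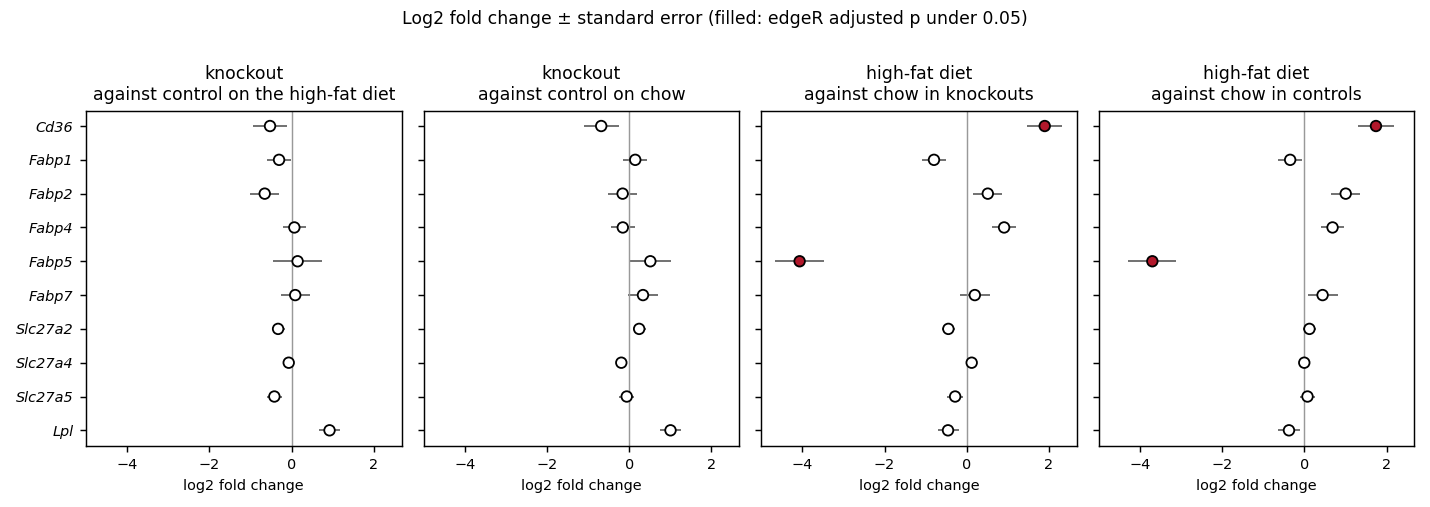
Log2 fold change of each member with its standard error in 4 comparisons, on one shared scale, filled where the edgeR adjusted p was under 0.05. Cd36 and Fabp5 are filled in both diet panels, and Lpl is the member farthest above 0 in both knockout panels without being filled.

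Per kilobase of merged exons, the members spanned more than 3 orders of magnitude. In high-fat knockouts Fabp1 led with 4777 ± 930 CPM per kilobase, followed by Slc27a5 with 362 ± 51.0, Slc27a2 with 315 ± 29.6, Fabp2 with 115 ± 25.04 and Cd36 with 41.4 ± 26.4 (SD, n = 4). Below these came Slc27a4 with 8.13 ± 0.642, Lpl with 4.21 ± 1.41, Fabp7 with 2.53 ± 0.760, Fabp4 with 1.999 ± 0.910 and Fabp5 with 0.982 ± 0.556 CPM per kilobase. The ranges of neighbours overlapped for Slc27a5 and Slc27a2 and from Lpl down to Fabp5. In chow controls the first 5 places were the same, with Fabp1 at 7495 ± 774 and Cd36 at 17.8 ± 7.56 CPM per kilobase. There Fabp5 ranked 6, at 11.6 ± 4.59 CPM per kilobase, above Slc27a4 at 8.55 ± 1.34 and with a range overlapping those of both neighbours. The GENCODE models of Fabp4, Fabp5, Slc27a5 and Lpl include transcripts with retained introns, which lengthen their merged exons. On the length of the longest coding transcript, Fabp5 in chow controls ranked 5 at 42.0 ± 16.6 CPM per kilobase, above Cd36 at 18.8 ± 7.98, and in high-fat knockouts it was still last at 3.55 ± 2.01.

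Cd36, the surface receptor, had 267, 167, 39.6 and 120.3 CPM in high-fat knockouts 1 to 4, against 53.1, 32.6, 42.0 and 32.0 CPM in chow knockouts 1 to 4. The groups overlap, because high-fat knockout 3 lies inside the chow range while the other 3 high-fat livers lie above it. The log2 fold change for diet in knockouts was 1.90 ± 0.43 (SE), with an edgeR adjusted p of 0.0127, and it stayed past the threshold whichever liver was left out (adjusted p up to 0.0497). In controls Cd36 had 137, 198, 306 and 212 CPM on the high-fat diet, against 68.0, 28.8, 63.4 and 94.9 CPM on chow. All 4 high-fat controls lay above all 4 chow controls, with a change of 1.74 ± 0.43 on the log2 scale (edgeR adjusted p 0.0448). This call was near the threshold. It was lost without any one of chow controls 1, 2, 3 or 4 or chow knockouts 2, 3 or 4. It was also lost without any one of high-fat controls 2 or 4 or high-fat knockouts 2 or 4. In those fits the adjusted p ran from 0.0535 to 0.124 and the log2 fold change from 1.52 to 2.02. The call also missed in limma-voom, with an adjusted p of 0.0536. When high-fat control 3 and chow knockout 1 were both left out, the diet change was 2.07 (adjusted p 0.00779) in knockouts and 1.51 (adjusted p 0.0447) in controls.

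Between genotypes Cd36 differed by -0.52 ± 0.42 on the log2 scale on the high-fat diet, with a 95% interval of -1.40 to 0.35, and by -0.68 ± 0.42 on chow, with an interval of -1.57 to 0.21. Neither passed, at edgeR adjusted p of 0.459 and 0.605. The difference between the diet responses of knockouts and controls was 0.16 ± 0.59, with an interval of -1.08 to 1.39. These intervals still allow more than a 2-fold difference in either direction for the interaction. Cd36 was also the member with the widest spread among high-fat knockouts, with a coefficient of variation of 63.9%, against 24.8% in chow knockouts.

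Slc27a2, which also activates very-long-chain fatty acids in peroxisomes, had 1081, 1104, 1315 and 1237 CPM in high-fat knockouts, against 1469, 1377, 1537 and 1562 CPM in high-fat controls. All 4 knockouts lay below all 4 controls on this diet, and Slc27a2 was the only member whose groups did not overlap there. Among all genes, 13.2% did not overlap in that comparison. The difference was -0.33 ± 0.16 on the log2 scale (edgeR adjusted p 0.238). On chow the gene had 2134, 1558, 1534 and 1235 CPM in knockouts and 1182, 1234, 1589 and 1453 CPM in controls, overlapping ranges with a log2 fold change of 0.24 ± 0.16 (edgeR adjusted p 0.624). The difference between the genotype effects on the diets was -0.57 ± 0.22 (unadjusted p 0.0199, edgeR adjusted p 0.347), and it was -0.39 without high-fat control 3 and chow knockout 1, the liver with the highest value. For diet in knockouts the log2 fold change was -0.45 ± 0.16 (edgeR adjusted p 0.0736). It passed in DESeq2 (adjusted p 0.0377) and with quality weights (adjusted p 0.0475).

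Slc27a5, a liver transporter that also joins bile acids to coenzyme A, had 729, 844, 1017 and 940.2 CPM in high-fat knockouts, against 1112, 993, 1489 and 1125 CPM in high-fat controls. Only high-fat knockout 3 reached into the control range. On the log2 scale the difference was -0.42 ± 0.19 (unadjusted p 0.0391, edgeR adjusted p 0.209). Of 9 hepatocyte markers tested between genotypes on this diet, all 9 had log2 fold changes below 0 and 0 passed. Their median was -0.31, beside 0.03 over all genes. Their part in the Slc27a2 and Slc27a5 values was not tested. On chow the ranges of Slc27a5 were 813 to 1308 CPM in knockouts and 838 to 1440.0 CPM in controls. Slc27a4, the main transport protein of the small intestine, was the steadiest member. It ran from 33.2 to 39.9 CPM in high-fat knockouts, 32.1 to 42.0 CPM in high-fat controls, 30.2 to 37.1 CPM in chow knockouts and 33.0 to 46.4 CPM in chow controls. Its log2 fold changes lay between -0.19 and 0.12 in the comparisons between groups, and for diet in controls the 95% interval was -0.28 to 0.27.

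Fabp1, the liver carrier, had 2790, 2513, 2018 and 3246 CPM in high-fat knockouts, against 2817, 6849, 4227 and 4475 CPM in chow knockouts. Chow knockout 1 was the lowest chow liver and lay within the high-fat range. Its log2 fold change was -0.80 ± 0.29 (edgeR adjusted p 0.0858), and without high-fat control 3 and chow knockout 1 it was -0.97 (adjusted p 0.0110). It also passed without 1 liver, at -0.96 (adjusted p 0.0480) without chow knockout 1, -0.79 (adjusted p 0.0447) without high-fat control 1 and -0.80 (adjusted p 0.0361) without high-fat control 3. DESeq2 (adjusted p 0.0483), quality weights (adjusted p 0.0102), the fit of only the groups compared (adjusted p 0.0415) and the fit with no filter (adjusted p 0.00557) called it as well. With the share of intronic counts in the model, which did not overlap between diets in knockouts, it was -0.07 (adjusted p 0.914). In controls Fabp1 had 1528, 2998, 5267 and 3257 CPM on the high-fat diet, against 4731, 3746, 3931 and 4172 CPM on chow, and the log2 fold change was -0.35 ± 0.29 (edgeR adjusted p 0.606). High-fat control 3 was above every chow control and the other 3 high-fat controls were below them all. Of 9 hepatocyte markers tested, such as Alb, which encodes albumin, 4 fell on the high-fat diet in knockouts and 0 changed in controls. Their summed level was 86110 to 107200 CPM in high-fat knockouts, 106300 to 141100 CPM in high-fat controls, 149700 to 173300 CPM in chow knockouts and 136700 to 155100 CPM in chow controls. Their part in the Fabp1 values was not tested.

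Fabp2, the carrier best known from the intestinal lining, had 129, 97.5, 84.3 and 134 CPM in high-fat knockouts, against 83.7, 74.6, 75.9 and 77.8 CPM in chow knockouts. All 4 high-fat knockouts lay above all 4 chow knockouts, the smallest gap being that between 84.3 and 83.7 CPM. On the log2 scale the change was 0.51 ± 0.35 (edgeR adjusted p 0.350). It passed in the fit of only the groups compared, at 0.52 (adjusted p 0.0249), with no filter, at 0.53 (adjusted p 0.0499), and with the share of intronic counts in the model, where it was larger, at 1.34 (adjusted p 0.0179). In controls it had 71.2, 126, 373 and 129 CPM on the high-fat diet, against 87.6, 59.2, 84.2 and 117 CPM on chow. One liver, high-fat control 3, held the highest value. A log2 fold change of 1.01 ± 0.35 (edgeR adjusted p 0.145) became 0.32 (adjusted p 0.447) without that liver. It passed with the share of intronic counts in the model, at 1.38 (adjusted p 0.00660). With no filter it was 1.01 (adjusted p 1.71e-06), with a standard error of 0.18, and that fit still includes high-fat control 3. Of 12 intestinal and pancreatic markers, 2 passed the filter, Apoa4 and Lgals4, and 0 passed the threshold in any comparison. Apoa4 had 199.5 to 3726 CPM and Lgals4 0.609 to 5.43 CPM. Both had log2 fold changes above 0 for diet, with a median of 1.26 in knockouts and 0.52 in controls. Of those not tested, Vil1 had 0 to 4.42 CPM. Cdx1 and Cdx2, factors that define gut lining, had 0 to 0.0604 and 0 to 0.152 CPM. The part of such cells in the Fabp2 values was not tested.

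Fabp5, the carrier of skin epithelium that many cell types use, gave the largest difference. It had 6.45, 2.93, 2.24 and 2.40 CPM in high-fat knockouts, against 9.46, 101, 42.6 and 83.2 CPM in chow knockouts. In controls it had 1.42, 2.42, 5.75 and 3.15 CPM on the high-fat diet, against 63.4, 43.0, 24.7 and 34.9 CPM on chow. Every high-fat liver lay below every chow liver, and the lowest high-fat library still held 21 counts, well above the floor of 3. The log2 fold change was -4.07 ± 0.59 in knockouts (edgeR adjusted p 0.00142) and -3.70 ± 0.59 in controls (edgeR adjusted p 0.00557). Both calls held without any one liver and in every other fit that was run. With 1 liver left out the log2 fold changes were -4.53 to -3.67 in knockouts and -4.12 to -3.42 in controls. With the share of intronic counts in the model the changes were smaller, at -2.87 in knockouts (adjusted p 0.0265) and -3.20 in controls (adjusted p 0.00785). Chow knockout 1 was the lowest chow liver, and without it and high-fat control 3 the changes were -4.41 and -4.12.

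Loss of Degs1 moved Fabp5 by 0.15 ± 0.59 on the high-fat diet (edgeR adjusted p 0.898) and by 0.52 ± 0.50 on chow (edgeR adjusted p 0.753). The 95% intervals were -1.09 to 1.39 and -0.54 to 1.57. With the share of intronic counts in the model these differences were 1.315 (adjusted p 0.687) and 0.98 (adjusted p 0.448). Fabp5 ranked 19th by p among all genes tested for diet in knockouts and 16th for diet in controls.

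Fabp4, the carrier of fat cells and macrophages, had 11.6, 6.94, 4.26 and 13.1 CPM in high-fat knockouts, against 4.975, 4.975, 4.35 and 4.78 CPM in chow knockouts. High-fat knockout 3 lay below the whole chow group and the other 3 above it. The log2 fold change was 0.91 ± 0.29, with an edgeR adjusted p of 0.0502, just above the threshold. It was 1.15 (adjusted p 0.0148) without high-fat knockout 3 and 0.91 (adjusted p 0.0258) without high-fat control 3, and it was called in DESeq2 (adjusted p 0.0237), with upper-quartile factors (adjusted p 0.0360), at a minimum count of 30 (adjusted p 0.0435) and with no filter (adjusted p 0.00672). In controls it had 7.33, 7.90, 12.1 and 6.95 CPM on the high-fat diet, against 6.09, 6.32, 4.005 and 4.92 CPM on chow, groups that did not overlap (0.69 ± 0.28, edgeR adjusted p 0.224). Among all genes, 7.23% did not overlap for diet in controls and 24.5% for diet in knockouts. Of the members, 3 did not overlap in controls (Cd36, Fabp4 and Fabp5) and 2 in knockouts (Fabp2 and Fabp5).

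The liver with the most Fabp4, high-fat knockout 4, also held transcripts of fat cells. It had 6.59 CPM of Adipoq (99 counts), 5.06 CPM of Lep (76 counts), 4.06 CPM of Plin1 (61 counts) and 1.27 CPM of Retn (19 counts). In the other 15 livers none of these fat markers passed 0.968 CPM. High-fat control 3 and high-fat knockout 1 had nearly as much Fabp4, at 12.05 and 11.6 CPM, with 0.135 and 0 CPM of Adipoq. Cfd, also on the list of fat cell markers, was not confined to 1 liver. It had 7.325 CPM in high-fat knockout 4, 6.249 and 5.889 CPM in high-fat controls 4 and 3, and 3.535 CPM in high-fat knockout 1. The part of fat cells in the Fabp4 values was not tested. Of 10 adipocyte markers on the list, 9 were in the table and 4 were tested, with 2 higher (Cfd and Cidec) and 1 lower (Pck1, which hepatocytes also use for glucose synthesis) for diet in knockouts and 0 in the other comparisons. The summed level was 1225 to 2085 CPM in high-fat knockouts, 1552 to 1776 CPM in high-fat controls, 2808 to 5052 CPM in chow knockouts and 2004 to 3188 CPM in chow controls, and Pck1 alone made up most of it, at 1208 to 5049 CPM over all livers. Without high-fat knockout 4 the Fabp4 change for diet in knockouts was 0.68 ± 0.29 (adjusted p 0.149). Fabp7, the brain carrier, was the least expressed member in raw counts, at 2.20 to 4.26 CPM in high-fat knockouts, 1.66 to 5.35 CPM in high-fat controls, 1.46 to 3.32 CPM in chow knockouts and 1.68 to 3.23 CPM in chow controls. Its groups overlapped throughout, with log2 fold changes from 0.09 to 0.44, and from 0.82 to 0.99 with the share of intronic counts in the model, where none passed (adjusted p 0.0810 to 0.484).

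Lpl, the lipase, had 63.3, 47.0, 37.0 and 29.2 CPM in high-fat knockouts, against 13.8, 18.7, 35.6 and 24.9 CPM in high-fat controls. The groups overlap in 1 knockout and 1 control, high-fat knockout 4 lying below high-fat control 3. Lpl differed by 0.92 ± 0.26 on the log2 scale (unadjusted p 0.00224, edgeR adjusted p 0.103). On chow Lpl had 62.8, 62.1, 47.5 and 70 CPM in knockouts, against 37.6, 30.9, 24.2 and 28.1 CPM in controls. Here all 4 knockouts lay above all 4 controls, and Lpl was the only member whose groups did not overlap. Among all genes, 6.34% did not overlap between these groups. The log2 fold change was 1.01 ± 0.26 (unadjusted p 0.00109, edgeR adjusted p 0.353). Lpl had the 310th smallest p of all genes tested on the high-fat diet and the 36th smallest on chow.

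The tools differed on Lpl. DESeq2 called it higher in knockouts on both diets, with log2 fold changes of 0.92 (adjusted p 0.0288) and 1.03 (adjusted p 0.0422), and limma-voom with quality weights called it on the high-fat diet, at 1.18 (adjusted p 0.0216). With 1 liver left out the edgeR log2 fold change stayed between 0.70 and 1.22 on the high-fat diet. On chow it stayed between 0.92 and 1.13, and Lpl was called in 0 of the 16 fits on either diet. With no filter it was called on both diets, at 0.93 (adjusted p 6.50e-05) on the high-fat diet and 1.001 (adjusted p 1.01e-05) on chow. The standard errors of Lpl in that fit were smaller, at 0.18 on both diets. With the share of intronic counts in the model it was 1.48 (adjusted p 0.0654) on the high-fat diet and 1.31 (adjusted p 0.0802) on chow. For diet, Lpl changed by -0.46 ± 0.26 in knockouts and by -0.37 ± 0.26 in controls, at edgeR adjusted p of 0.250 and 0.506. The genotype effects on the diets differed by -0.08 ± 0.36, with a 95% interval of -0.85 to 0.68.

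Macrophages make Lpl too, and markers of recruited macrophages moved in part of the same livers. Of 10 such markers tested, 0 passed between genotypes on either diet, 7 rose on the high-fat diet in knockouts and 0 passed for diet in controls. Between genotypes on the high-fat diet the log2 fold change was above 0 for 9 of the 10. Its median was 1.02, against 0.03 over all genes and 0.92 for Lpl. On chow the log2 fold change was above 0 for 5 of the 10. Its median was 0.02, against -0.01 over all genes and 1.01 for Lpl. For diet in controls the log2 fold change was above 0 for 7 of the 10, with a median of 0.81. Itgax, an integrin of these cells, had 14.1, 9.05, 6.61 and 2.20 CPM in high-fat knockouts, against 3.26, 2.29, 2.03 and 3.599 CPM in high-fat controls. High-fat knockouts 1 to 4 stand in the same order for Itgax as for Lpl, but the livers of each other group do not. High-fat control 3 had the most Lpl of its group, at 35.6 CPM, and the least Itgax, at 2.03 CPM. On chow Itgax had 1.95, 2.19, 2.36 and 2.32 CPM in knockouts and 1.52, 1.29, 1.85 and 1.44 CPM in controls. The summed level of the 10 markers was 111 to 320 CPM in high-fat knockouts and 90.8 to 286 CPM in high-fat controls. On chow it was 128 to 155 CPM in knockouts and 118 to 177 CPM in controls. Its largest parts were Lyz2, at 37.5 to 172.7 CPM over all livers, and Spp1, at 29.5 to 98.6 CPM. Spp1 was also listed as a marker of bile duct cells. Gpnmb, a marker of lipid-laden macrophages, reached 28.5 CPM in high-fat knockout 1, which also led that group for Cd36 and Fabp5. The part of these cells in the Lpl, Cd36, Fabp4 and Fabp5 values was not tested. Of 9 Kupffer cell markers 1, C6, fell with diet in each genotype, and of 10 sinusoidal endothelial markers 0 passed in any comparison. Of 5 capillary endothelial markers tested, 2 rose for diet in knockouts (Plvap and Vwf). Of 10 stellate cell markers, 2 rose (Pdgfrb and Cygb) and 1 fell (Hhip) for diet in knockouts. In the other comparisons 0 of these capillary and stellate markers passed.

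**Figure D3:**
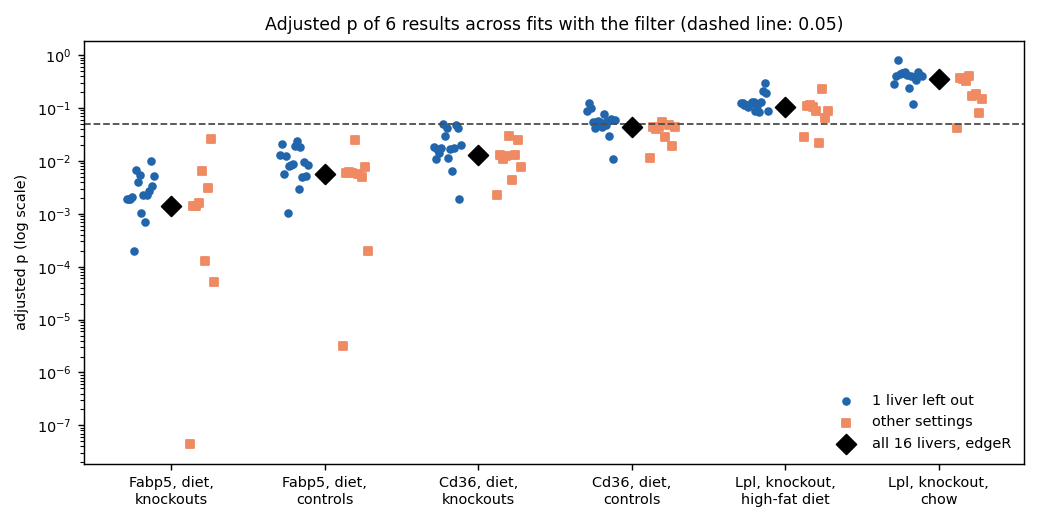
Adjusted p on a log scale for 6 results, with all 16 livers in edgeR (diamond), with 1 liver left out (circles) and under other settings that keep the filter (squares), beside a dashed line at 0.05. Both Fabp5 results and Cd36 in knockouts stay below the line, Cd36 in controls lies across it, and Lpl lies above it except for DESeq2 on both diets and quality weights on the high-fat diet.

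The rest of the uptake pathway was described from lists of genes. Of 7 other Fabp and Slc27 genes, 2 passed the filter, Slc27a1 and Slc27a3, and 0 changed in any comparison in edgeR; 1 of them, Slc27a1, had an unadjusted p under 0.05, of 0.0134 for diet in controls. The enzymes that activate fatty acids with coenzyme A moved mostly down with diet. Of 12 acyl-CoA synthetases tested, 5 fell in knockouts (Acsl1, Acsl4, Acsl5, Acsm2 and Acss2) and 3 in controls (Acsl4, Acsm2 and Acss2), while Acss3 rose in controls. Among all genes, 10.6% passed for diet in knockouts and 1.83% in controls. Acsm2 averaged 0.331 CPM in high-fat knockouts and 0.205 CPM in high-fat controls, near the floor of 3 counts. Acsl1, the main long-chain synthetase of liver, averaged 1049 ± 147 CPM in high-fat knockouts and 1569 ± 99.6 CPM in chow knockouts (SD, n = 4 each), a log2 fold change of -0.58 ± 0.14 (edgeR adjusted p 0.0187). Acss2, which activates acetate, averaged 196 ± 70.8 CPM in high-fat knockouts and 443 ± 103 CPM in chow knockouts (-1.18 ± 0.29, edgeR adjusted p 0.0194). The median log2 fold change of the 12 was -0.38 for diet in knockouts and -0.36 in controls, beside 0.02 and 0.01 over all genes. Between genotypes 0 of the 12 changed on either diet, and the medians were -0.04 on the high-fat diet and -0.05 on chow.

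Of 21 partners of the lipase and receptors for lipoproteins, 1 rose and 3 fell for diet in knockouts, and 1 rose and 1 fell in controls. The very-low-density lipoprotein receptor Vldlr averaged 4.97 ± 2.67 CPM in high-fat knockouts and 1.46 ± 0.724 CPM in chow knockouts (1.76 ± 0.46, edgeR adjusted p 0.0237). In controls it averaged 9.87 ± 2.42 CPM on the high-fat diet and 2.04 ± 0.839 CPM on chow (2.25 ± 0.44, edgeR adjusted p 0.0143). Lsr, a receptor for remnants of lipoproteins, fell in knockouts and in controls by 0.77 on the log2 scale each (edgeR adjusted p 0.00652 and 0.0145), and hepatic lipase Lipc fell in knockouts. Angptl4, an inhibitor of the lipase, averaged 173 ± 7.15 CPM in chow knockouts and 107 ± 43.1 CPM in chow controls, without passing (0.69 ± 0.27, edgeR adjusted p 0.472). Gpihbp1, which carries the lipase across the endothelium, averaged 14.02 ± 3.95 CPM in high-fat knockouts and 23.3 ± 13.2 CPM in high-fat controls (-0.73 ± 0.33, edgeR adjusted p 0.210).

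Among 20 transcription factors and cofactors known to act on such genes, Srebf1, the driver of fatty acid synthesis, fell in chow knockouts, which averaged 154 ± 26.3 CPM, against 490.4 ± 174 CPM in chow controls (-1.68 ± 0.24, edgeR adjusted p 0.0123). For diet in knockouts Srebf1 and Nr1i3 rose and Cebpb fell, and for diet in controls Nr1i3 rose. Ppara and Pparg, the receptors that bind fatty acids, did not pass in any comparison. Ppara averaged 257 ± 41.5 CPM in high-fat knockouts and 225 ± 43.8 CPM in high-fat controls. Of 28 known PPAR targets tested, 6 rose (Vnn1, Plin4, Cidec, Mogat1, Ucp2 and Cfd) and 1 fell (Acot1) for diet in knockouts. In controls 1 rose (Plin4), and 0 passed between genotypes on either diet. Among all genes, 10.6% passed for diet in knockouts and 1.83% in controls. Mogat1 and Cfd averaged 0.141 and 0.139 CPM in chow knockouts, near the floor of 3 counts, so the size of their rise is uncertain. Their median log2 fold change was 0.18 for diet in knockouts and 0.38 in controls. Plin4, which coats lipid droplets, averaged 31.3 ± 21.3 CPM in high-fat knockouts and 3.69 ± 1.25 CPM in chow knockouts (3.10 ± 0.61, edgeR adjusted p 0.00648). Some targets are also genes of fat cells, Cfd and Cidec being on both lists. Of 16 clock genes 0 changed in any comparison.

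Among livers of 1 group the members also varied, and the genes that varied most like each were found by correlating log2 CPM after each group mean was subtracted, over 16 livers and 9693 genes. These values describe the livers and carry no test, and the livers share depth and RNA quality differences. Cd36 went most with Micu2, a regulator of mitochondrial calcium entry (r = 0.91, rho = 0.80), Ermp1 (r = 0.91, rho = 0.82) and Pparg (r = 0.89, rho = 0.79). Pparg had 31.5, 18.0, 4.53 and 17.0 CPM in high-fat knockouts 1 to 4, highest in the liver with the most Cd36 and lowest in that with the least. Without the 2 livers farthest from the median of the other gene, r was 0.87 for Micu2, 0.77 for Ermp1 and 0.73 for Pparg.

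Fabp5 went with Pes1, a protein of ribosome assembly (r = 0.96, rho = 0.89), and then Gpn1 and Maged2. Lpl went with Unc119 (r = 0.93, rho = 0.88), then Sparc, a matrix protein (r = 0.91, rho = 0.82), and Rcn3. Slc27a2 went with Cyp2e1, a cytochrome of central hepatocytes (r = 0.90, rho = 0.89), and Fabp1 with Sept7, Snx2 and Dbi, which binds acyl-CoA (r = 0.92, rho = 0.80). Over the 30 genes named by this rule r ran from 0.82 to 0.97. Among the 45 pairs of members, r ran from -0.72, for Fabp5 with Slc27a2, to 0.76, for Fabp1 with Fabp5. Without the 2 livers farthest from the median these were -0.60 and 0.77, whereas Fabp1 with Fabp2 dropped to 0.23 from 0.72 with all livers.

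**Figure D4:**
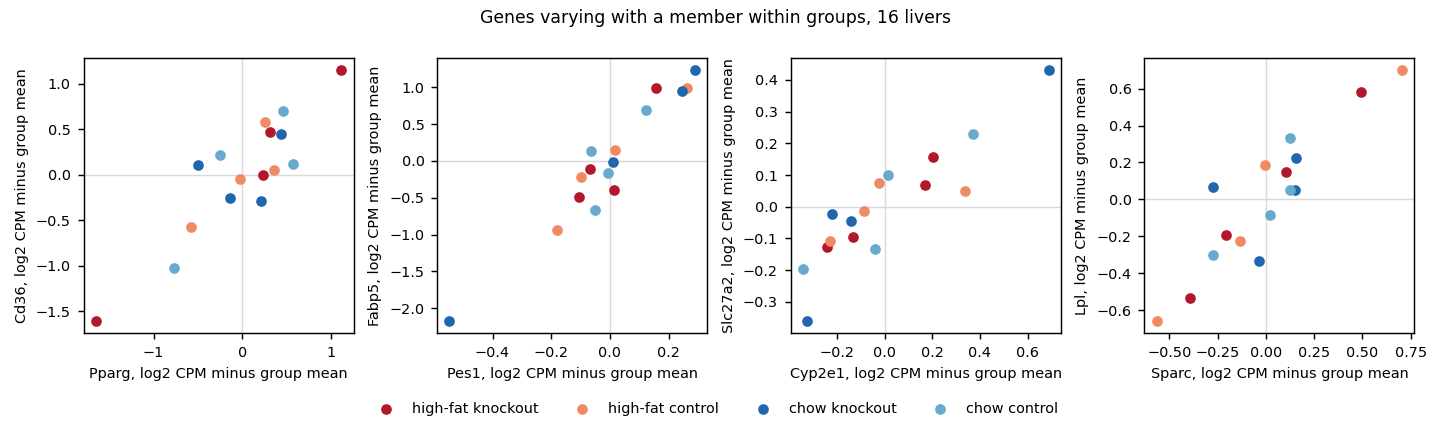
Log2 CPM minus the group mean of 4 members (vertical axes) against that of 1 gene each among the 3 most like it (horizontal axes), coloured by group, 16 livers in each panel. High-fat knockouts 1 and 3 are the ends of the Cd36 and Pparg panel, and chow knockout 1 is the low end of the Fabp5 and Pes1 panel.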

How the data were processed

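Libraries were made from liver total RNA with a stranded kit after ribosomal RNA depletion, per the labels' protocols. The deposited values are raw read counts per Ensembl gene, which the authors did not normalize. Per the submitters' processing notes, STAR 2.5.4a, featureCounts 1.5.1 and DESeq2 were used with build GRCm38. The sources used here do not give the strand setting, the read length or the treatment of multiple hits. No pair of livers of the same group agreed within sampling noise (chi-square per degree of freedom 12.3 to 126 over 24 such pairs).

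Genes were filtered with filterByExpr (minimum count 10), scaled by TMM and fitted with 4 group means over all 16 livers in edgeR 4.0.16 (R 4.3.3), with quasi-likelihood F tests and Benjamini-Hochberg adjustment over 14351 genes. Standard errors were derived from each F value and its log2 fold change. Alternatives used DESeq2 1.42.0, limma 3.58.1, other scaling, other filters, a covariate and livers left out. The fit was tested on simulated counts. RefSeq windows and GENCODE M21 transcripts gave the sequences, aligned with Biopython 1.88.

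The members and lists were chosen with earlier results of these data known. Named are all members, Degs1, genes of the lists that passed or had small p, and the 3 genes most like each member; some were left out for length, and 1 gene counted among the lipase partners is not reported here by name. Replicate numbers follow accession order.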

Additional observations from a re-analysis of the deposited data

Results flagged for a closer look

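Fabp5 in high-fat knockout 1 stood at 6.45 CPM, far from the other 3 livers of its group, at 2.24 to 2.93 CPM. The gap was 0.835 of the group's whole range, more than Dixon's test allows for 4 values at the 95% level. Chance sets off about 5% of groups, and 40 groups were looked at, of which 1 stood out. Without that liver the Fabp5 change for diet in knockouts still passed.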

How the results depend on the processing

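No paired analysis was possible because the animal numbers in the labels are all different, so that no number links livers across groups. The number of members called moved as follows. For diet in knockouts it was 2, and it became 5 in DESeq2, 5 with no filter, 5 at an adjusted p threshold of 0.1, and 4 with quality weights, in fits of only the groups compared, and without high-fat control 3 and chow knockout 1. It became 3 with upper-quartile factors and at a minimum count of 30 (Fabp4 added) and with intronic counts in the model (Fabp2 added). For diet in controls it was 2 and became 1 in limma-voom (Cd36 lost) and 3 with no filter and with intronic counts in the model (Fabp2 added). For knockout on the high-fat diet it was 0 and became 1 in DESeq2, 1 with quality weights and 2 with no filter. For knockout on chow it was 0 and became 1 in DESeq2 and 2 with no filter. For the interaction it stayed at 0. With 1 liver left out it was 2 to 4 for diet in knockouts and 1 to 2 for diet in controls. The filter-free fit gave smaller standard errors for members, and the cause was not tested. They were 0.176 for Fabp2 for diet in controls, and 0.177 for Cd36 and 0.178 for Lpl for knockout on chow. With the filter they were 0.35, 0.42 and 0.26. Its p-values therefore do not follow each member's own spread between livers. Its median log2 fold change over all genes was 0.25 for knockout on chow and -0.29 for the interaction.

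No called change turned sign. Uncalled ones near 0 did, again with no cause tested. Slc27a4 for diet in controls (-0.0020 on the log2 scale) was 0.021 in DESeq2, 0.021 with RLE factors, 0.045 with upper-quartile factors, 0.018 at a minimum count of 30, 0.0032 in limma-voom, 0.073 with quality weights, 0.036 in a fit of only the groups compared and 0.066 without high-fat control 3 and chow knockout 1. In limma-voom Fabp4 for knockout on the high-fat diet was -0.0345 and the Cd36 interaction -0.16. With quality weights Slc27a5 for diet in controls was -0.056, Fabp7 for diet in knockouts -0.0011, and the interactions of Cd36, Fabp5 and Lpl were -0.014, 0.037 and 0.24. With the share of intronic counts in the model, knockout on chow gave 0.41 for Fabp2 and 0.053 for Slc27a5, knockout on the high-fat diet gave 0.44 for Fabp1 and 0.37 for Fabp2, diet in controls gave 0.038 for Fabp1, diet in knockouts gave 0.065 for Lpl, and the interactions of Fabp5, Fabp7 and Lpl were 0.33, 0.10 and 0.17. Without high-fat control 3 and chow knockout 1, knockout on the high-fat diet gave 0.041 for Fabp1 and 0.046 for Fabp2, diet in controls gave -0.056 for Slc27a5, and the interactions of Fabp2 and Lpl were 0.23 and 0.22.

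With 1 liver left out, values that turned sign ranged as follows. For knockout on chow they ran from -0.10 to 0.33 for Fabp1, from -0.30 to 0.027 for Fabp2 and from -0.16 to 0.093 for Slc27a5. For knockout on the high-fat diet they ran from -0.55 to 0.041 for Fabp1, from -0.92 to 0.046 for Fabp2, from -0.17 to 0.30 for Fabp4, from -0.33 to 0.59 for Fabp5 and from -0.12 to 0.54 for Fabp7. For diet in controls they ran from -0.039 to 0.13 for Slc27a4 and from -0.056 to 0.24 for Slc27a5. For the interaction they ran from -0.30 to 0.46 for Cd36, from -0.77 to 0.19 for Fabp2, from -0.025 to 0.44 for Fabp4, from -0.86 to 0.059 for Fabp5, from -0.52 to 0.19 for Fabp7, from -0.0030 to 0.17 for Slc27a4 and from -0.32 to 0.20 for Lpl. In all, 744 of 800 such values kept their direction and side of the threshold, as did 483 of 540 under the other settings.

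Over all genes, DESeq2 called 1177 higher and 1092 lower for diet in knockouts, 512 and 282 for diet in controls, 265 and 368 for knockout on the high-fat diet and 34 and 16 for knockout on chow, against 748 and 768, 135 and 127, 9 and 7, and 0 and 2 in edgeR. Quality weights gave 2184 and 2161, 412 and 378, 136 and 151, and 1 and 3. In the same order, with no filter there were 1157 and 738, 651 and 341, 446 and 518, and 199 and 109. Fits of only the groups compared gave 1431 and 1362, 30 and 45, 0 and 1, and 0 and 1. The fit with intronic counts gave 368 and 505, 484 and 673, and 0 called for knockout on either diet, and that without high-fat control 3 and chow knockout 1 gave 1636 and 1637, 788 and 431, 7 and 5, and 0 and 2. A threshold of 0.1 gave 1375 and 1331, 378 and 266, and, for knockout on the high-fat diet, 124 and 138, where a minimum count of 30 gave 22 and 8 and limma-voom 21 and 10. The interaction, with 0 genes in edgeR, had 37 and 46 in DESeq2, 145 and 114 with no filter and 3 and 6 with quality weights. With 1 liver left out, diet in knockouts ran from 270 and 195 (without high-fat knockout 2) to 1422 and 1492 (without high-fat control 3), and diet in controls from 42 and 58 (without chow control 2) to 636 and 319 (without high-fat control 3). Upper-quartile factors changed the split for diet in knockouts to 1028 higher and 447 lower, for diet in controls to 170 and 100 and for knockout on the high-fat diet to 27 and 7. Fabp7, with 15 to 82 counts a liver, and Fabp5 on the high-fat diet, with 21 to 124, are the values that depth limits most.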
